A study of Drosophila melanogaster with 12 samples.

Results

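The Cpr genes encode cuticle proteins that carry the Rebers and Riddiford consensus, a stretch of amino acids that binds chitin. They were taken from a deposited table of RNA-seq read counts as every gene whose FlyBase symbol is Cpr followed by a digit, which leaves out the reductase gene named Cpr. The rule found 70 genes among the 14869 in the table. It used names and no measured value.

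RNA had been sequenced from dissected wing discs of 3rd instar larvae raised at 25 degrees, in 4 genotypes with 3 libraries each. Wild type was w[1118]. The other groups carried an EGFP::ASH1 transgene under the alpha-tubulin promoter, which is active in nearly all cells, in flies with the mutant alleles ash1[10] and ash1[22]. ASH1, a Trithorax group protein, helps to keep developmental genes active. It carries a histone methyltransferase domain, and a BAH domain and AT hooks that take part in chromatin binding. In ASH1 WT libraries the transgene encoded the intact protein. In ΔBAH it lacked the BAH domain, and in ΔBAH mutAT1 it carried that deletion and mutations in AT hook 1. No library held the ash1 mutant alleles without a transgene, so the alleles and the transgenes cannot be told apart against wild type. In each stepwise comparison of transgenic lines both groups share the alleles.

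Insect cuticle is a composite of chitin fibres and proteins that the epidermis secretes at its apical face. In Drosophila the larval, pupal and adult cuticles are laid down one after another, each under the control of pulses of the moulting hormone ecdysone, and cuticle protein genes are known for being switched on in turn within these pulses. Many Cpr genes lie side by side in arrays of related copies. A late larval wing disc is mostly a growing epithelium that has not yet secreted the pupal cuticle, with trachea, muscle precursors and blood cells attached. For most individual Cpr proteins no role beyond cuticle structure is given here.

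The libraries held between 15083960 and 39180697 counts. The numbers given to the libraries fall into 3 runs of consecutive numbers, called library series 1, 2 and 3 here. Series 1 holds replicate 1 of wild type and of ΔBAH mutAT1, series 2 holds replicate 2 of these genotypes and replicate 1 of ASH1 WT and ΔBAH, and series 3 holds the other 6 libraries. The study's supplement mentions sequencing in 3 runs, but that the series are those runs is an inference. The targeted gene ash1, counted over transgene and endogenous alleles together, lay between 85.6 and 112 CPM (counts scaled to 1000000 per library) in wild type, 234 and 534 in ASH1 WT, 155 and 448 in ΔBAH and 182 and 417 in ΔBAH mutAT1. All 12 wing disc markers that could be matched were tested and none passed the test against wild type, beside 1.92% to 3.15% of all genes tested. Their summed level lay between 3285 and 5108 CPM in every library. Wild-type replicate 1 stood apart in fat body RNA, since 9 fat body markers summed to 3029 CPM there, to 102 and 440 in the other wild-type libraries and to between 83.1 and 344 in the transgenic ones.

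Most of the Cpr family was silent or nearly so in these discs. No read was counted in any of the 12 libraries for 16 members, called silent here. Another 29 members, called trace, had at least 1 count but were removed by the filter on low counts. It asks, in at least 3 libraries, for a depth-scaled level that equals about 10 counts at the median depth. A count of 10 in a deep library can fall short of it. The other 25 passed the filter and are called expressed. Silent genes thus made up 22.9% of the family, against 2669 of all 14869 genes in the table and 14.0% of the protein-coding ones. Expressed genes made up 35.7% of the family, against 56.1% of all genes and 59.6% of protein-coding ones. The 45 silent and trace members were not detectable or hardly detectable at this depth: 3 counts, the number that a count of 0 allows, correspond to between 0.0756 and 0.201 CPM.

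The silent members were Cpr23B, Cpr47Ea, Cpr47Ed, Cpr47Ef, Cpr49Ab, Cpr49Ae, Cpr49Af, Cpr57A, Cpr65Au, Cpr65Av, Cpr65Ax1, Cpr65Ax2, Cpr65Az, Cpr65Ea, Cpr67Fb and Cpr78Cc. For Cpr57A the count of 0 is uncertain, because in the BDGP6 annotation another counted gene covers its whole exon sequence. Obp57d, an odorant-binding protein gene on the same strand, covers 1488 of 1488 bp. Antisense RNAs cover 389 of 457 bp of Cpr67Fb and 491 of 526 bp of Cpr65Au, but these RNAs are not among the counted genes. How the counting treated reads in overlaps, and whether it used strand, is not stated. Near-identical copies such as Cpr65Ax1 and Cpr65Ax2, or Cpr67Fa1 and Cpr67Fa2, may also lose or share reads.

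Among the trace members, Cpr62Bc had 97 counts over the 12 libraries, Cpr92F had 85, Cpr62Ba had 67, Cpr47Ec had 51 and Cpr66Cb had 32. The totals of Cpr11B, Cpr47Eg, Cpr92A, Cpr65Aw, Cpr62Bb, Cpr78Ca, Cpr30F, Cpr73D and Cpr76Bd lay between 11 and 19 counts. Those of Cpr50Ca, Cpr30B, Cpr72Ec, Cpr78Cb, Cpr65Eb, Cpr49Aa, Cpr50Cb and Cpr64Ab lay between 2 and 8. A single count was found for each of Cpr49Ad, Cpr5C, Cpr60D, Cpr65Ay, Cpr76Ba, Cpr76Bb and Cpr76Bc. Had silence been set at no more than 3 counts in every library, 30 members would have met it.

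**Figure D1:**
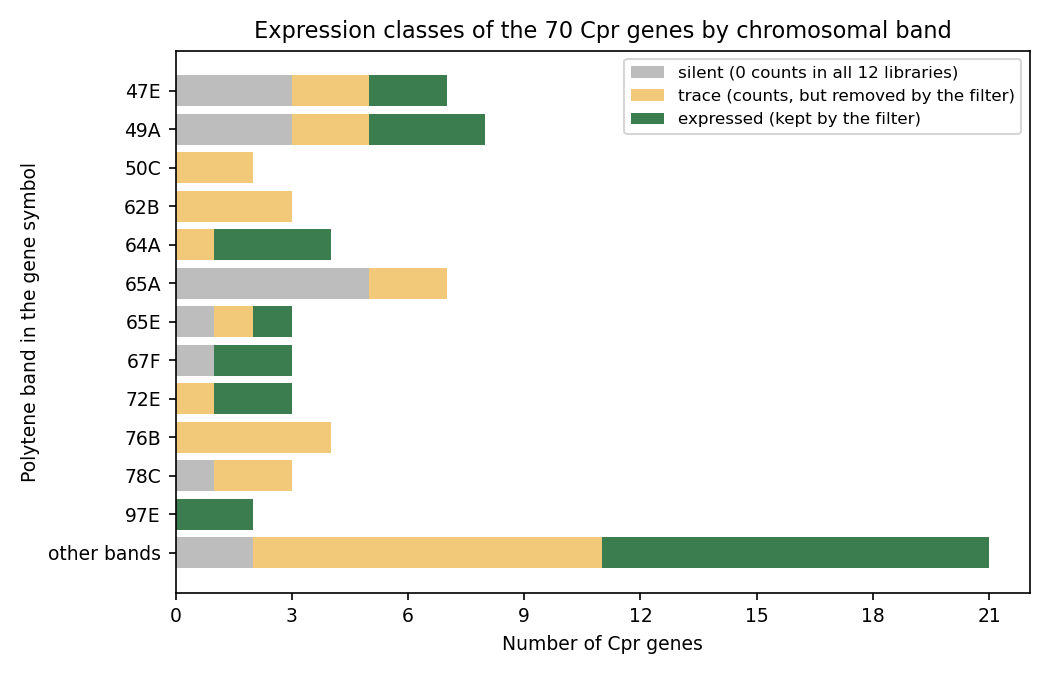
Number of Cpr genes in each expression class (horizontal axis) for the 12 polytene bands that hold more than 1 member, named as in the gene symbols, with the 21 members of all other bands in the last bar. Band 65A held 5 silent and 2 trace genes and no expressed one. Both genes of band 97E passed the filter, although Cpr97Eb had only 61 counts in all.

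Some arrays held silent and expressed genes side by side, and others had no expressed gene. The family is spread over chromosome arms 3L (35 members), 2R (21), 2L (5), 3R (5) and X (4). The array at 49A held 8 members within 38545 bp on 2R, of which 3 were silent, 2 were trace and 3 were expressed. It included Cpr49Ac, the member with the most counts (105965 in all), and its neighbour in name Cpr49Ab, which had none. In the array at 47E, 3 of 7 members were silent, 2 were trace and 2 were expressed. At 64A, Cpr64Aa reached 22212 counts while Cpr64Ab, in the same 8577 bp of 3L, had 2. The 7 members at 65A had no more than 15 counts each, and the 4 members at 76B no more than 11. The plot of classes by band shows these arrays side by side.

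Per exon length, a few members carried most of the family's RNA. The mean level over the 12 libraries was 156 RPKM (CPM divided by exon length in kb) for Cpr49Ac, 98.3 for Cpr12A, 72.3 for Cpr64Aa, 53.1 for Cpr65Ec and 48.99 for Cpr78E. These 5 genes made up 77.4% of the summed RPKM of the family, and the first 9 made up 94.4%. Cpr49Ac stood at percentile 95.6 of the 7642 annotated genes that passed the filter, so it belonged to the well expressed genes of the disc. The next members were Cpr51A at 26.3 RPKM, Cpr49Ag at 26.2, Cpr66D at 25.8 and Cpr49Ah at 16.0.

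Lower levels were measured for the remaining 16 expressed members. Cpr31A (6.40 RPKM), Cpr67Fa2 (5.49), Cpr56F (4.05), Cpr35B (3.30), Cpr72Ea (2.41), Cpr64Ac (2.35) and Cpr97Ea (1.06) had a mean above 1 RPKM. Below it were Cpr64Ad (0.888), Cpr67B (0.751), Cpr67Fa1 (0.591), Cpr11A (0.497), Cpr47Ee (0.493), Cpr72Eb (0.460), Cpr47Eb (0.449), Cpr100A (0.377) and Cpr97Eb (0.187). Cpr47Eb, Cpr47Ee, Cpr67Fa1, Cpr72Eb and Cpr97Eb had a count of 0 in at least 1 library. Cpr97Eb had counts in only 6 libraries and 61 in all, fewer than the trace members Cpr62Bc, Cpr92F and Cpr62Ba. A mean of at least 1 RPKM in some genotype was reached by 18 members.

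**Figure D2:**
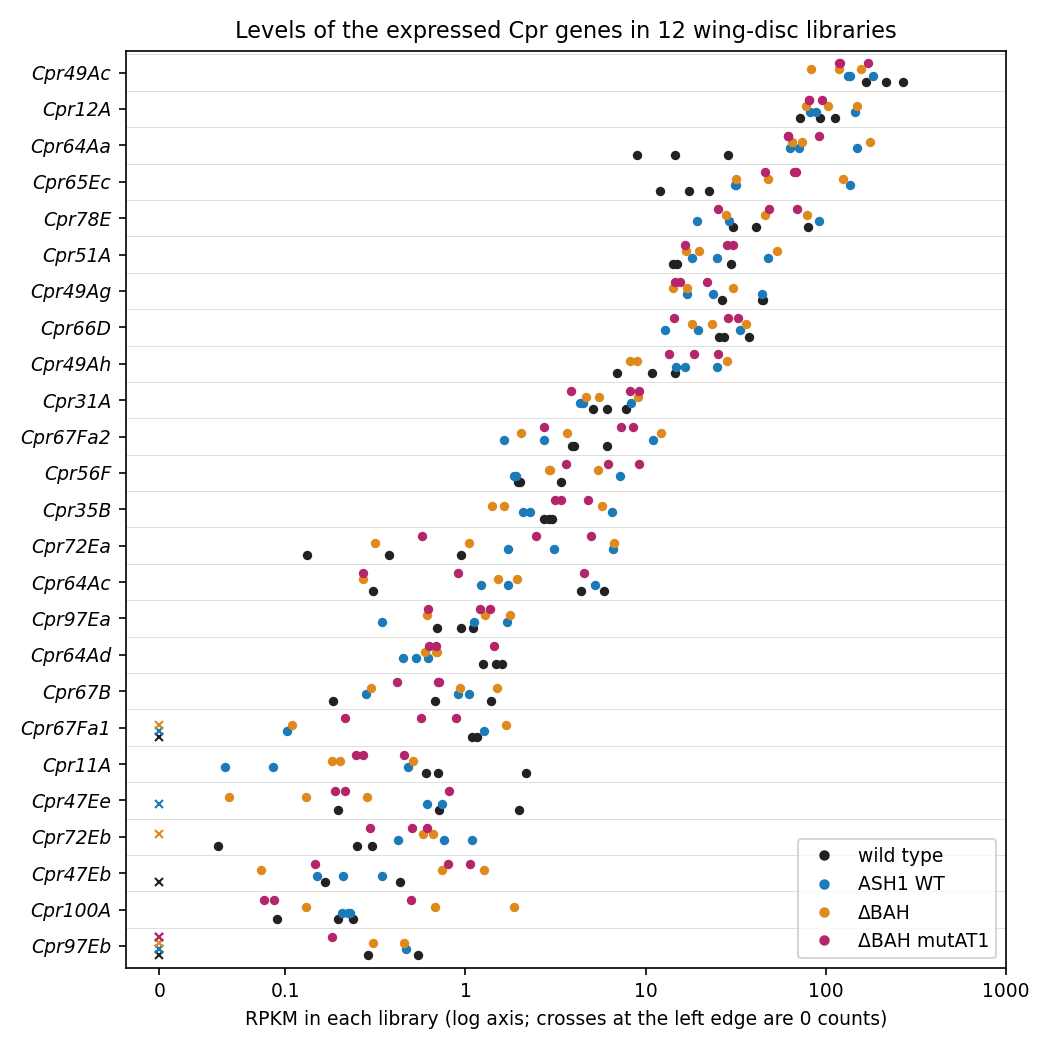
RPKM of the 25 expressed Cpr genes in each of the 12 libraries (horizontal log axis, 1 point per library, coloured by genotype), ordered by the mean over all libraries. The wild-type points of Cpr64Aa and Cpr65Ec lie left of all 9 transgenic points, and those of Cpr49Ac lie toward the right of its row.

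Cpr64Aa was the member that differed between wild type and the transgenic lines by the test. In wild type it was at 9.05, 29.2 and 14.7 CPM in replicates 1, 2 and 3. It was at 151, 64.3 and 71.9 CPM in ASH1 WT, at 179, 75.2 and 66.4 CPM in ΔBAH, and at 63.1, 93.0 and 62.9 CPM in ΔBAH mutAT1. The 9 transgenic libraries all lay above the highest wild-type library. The gene lies at position 4207838 to 4209178 on the minus strand of 3L (BDGP6), inside the bounds of the longer gene CG43367, whose exons do not overlap it.

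Against wild type the rise was 2.44 ± 0.53 on the log2 scale in ASH1 WT (± SE, n = 3 libraries per genotype; 5.42-fold; adjusted p = 0.0423 with edgeR's quasi-likelihood test) and 2.60 ± 0.53 in ΔBAH (6.06-fold; adjusted p = 0.0300 with edgeR). In ΔBAH mutAT1 it was 2.05 ± 0.52 (4.14-fold) and did not pass (adjusted p = 0.0882 with edgeR). For that line it passed in the fit paired by replicate number on the 6 libraries compared (2.17, adjusted p = 0.000346 with edgeR) and with library series as a covariate (2.20, adjusted p = 2.93e-05 with edgeR), and not with the block on all 12 libraries (adjusted p = 0.111 with edgeR). Over the mean of the 3 transgenic lines it was 2.36 ± 0.48 (5.14-fold; adjusted p = 0.0189 with edgeR). Differences between the lines themselves were 0.16 ± 0.50 for ΔBAH against ASH1 WT and -0.55 ± 0.50 for ΔBAH mutAT1 against ΔBAH, and neither passed the test (both adjusted p = 1.0 with edgeR).

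These calls lay close to the threshold and depended on single libraries. Without wild-type replicate 1 the call for the mean of the lines was lost (log2 difference 2.06, adjusted p = 0.0949 with edgeR), as it was without wild-type replicate 3 (2.25, adjusted p = 0.120 with edgeR). The call in ASH1 WT held without wild-type replicate 2 or ΔBAH replicate 1 and was lost without any other single library. The call in ΔBAH was lost without wild-type replicate 1 or 3, ΔBAH replicate 1 or 2, or ΔBAH mutAT1 replicate 1 or 3. Over all alternatives, with edgeR, DESeq2 or limma-voom, the adjusted p lay between 2.02e-05 and 0.196 in ASH1 WT and between 7.53e-06 and 0.146 in ΔBAH. Within the library series, the transgenic mean was 4.83 times the wild-type library in series 2 and 4.63 times in series 3. In series 1, which holds 1 transgenic library, that library was at 6.97 times the wild-type one. A higher level in every series follows from the lack of overlap given above. The series hold 1 wild-type library each, so these ratios carry no error.

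Against wild type, 1 of the 25 members tested was called at an adjusted p below 0.05 in ASH1 WT, where 1.92% of the 8346 genes tested were called. It was also 1 in ΔBAH, where 1.93% of all genes were called, and 1 for the mean of the lines, where 3.15% were. In ΔBAH mutAT1 it was 0, beside 2.17% of all genes, and limma-voom called 0 members, beside 1.43% of all genes. The member called was Cpr64Aa in each case. At an unadjusted p below 0.05 there were 5 members for ASH1 WT (8.75% of all genes), 7 for ΔBAH (8.84%), 6 for ΔBAH mutAT1 (8.08%) and 7 for the mean of the lines (10.7%).

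The number of members called depended on the fit, and so did the share of all genes called. DESeq2 called 2 members in ASH1 WT (3.16% of all genes), 2 in ΔBAH (3.27%), 1 in ΔBAH mutAT1 (3.49%) and 5 for the mean of the lines (4.8%). The 5 were Cpr64Aa, Cpr65Ec and Cpr72Ea, which were higher, and Cpr49Ac and Cpr11A, which were lower. With library series as a covariate these numbers were 4 (7.3%), 3 (6.25%), 6 (6.45%) and 7 (11.1%). The 7 were Cpr64Aa, Cpr65Ec, Cpr72Ea and Cpr56F, which were higher, and Cpr49Ac, Cpr49Ag and Cpr11A, which were lower. With the replicate number as a block the numbers were 0 (1.88%), 0 (1.98%), 0 (2.14%) and 3 (3.25%). This block joins wild-type libraries with ASH1 WT and ΔBAH libraries of other series, and only ΔBAH mutAT1 shares the series throughout. When only the libraries of the 2 genotypes compared entered the fit, the number was 0 for ASH1 WT (1.12%), 0 for ΔBAH (1.24%) and 1 for ΔBAH mutAT1 (1.94%).

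Cpr65Ec came next among the members that were higher. It was at 12.7, 9.82 and 6.83 CPM in wild type, at 77.6, 17.7 and 18.1 in ASH1 WT, at 70.4, 17.9 and 27.2 in ΔBAH, and at 37.8, 38.7 and 26.1 in ΔBAH mutAT1. All transgenic libraries again lay above all wild-type ones. The difference for the mean of the lines was 1.90 ± 0.57 on the log2 scale and did not pass the test (adjusted p = 0.131 with edgeR). With library series as a covariate it passed (2.02, adjusted p = 0.000807 with edgeR). Cpr72Ea was at 0.151, 1.09 and 0.431 CPM in wild type and between 0.361 and 7.66 CPM in the transgenic libraries, so these groups overlapped (2.65 ± 1.04, adjusted p = 0.319 with edgeR).

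Cpr49Ac, the most abundant member, did not pass the test in the fit to all 12 libraries. It was at 569, 461 and 356 CPM in wild type, at 388, 287 and 282 in ASH1 WT, at 332, 176 and 253 in ΔBAH and at 254, 365 and 250 in ΔBAH mutAT1. Replicate 1 of ASH1 WT and replicate 2 of ΔBAH mutAT1 lay above wild-type replicate 3, so the groups overlapped, but within each series every transgenic library lay below the wild-type one. The transgenic mean was 0.447, 0.785 and 0.702 times the wild-type library in series 1, 2 and 3, and series 1 holds 1 transgenic library. The difference for the mean of the lines was -0.69 ± 0.21 on the log2 scale (adjusted p = 0.147 with edgeR), and it passed with series as a covariate (-0.61, adjusted p = 0.0127 with edgeR). The wild-type library with the highest Cpr49Ac level was also the one with the high fat body RNA, and the part of fat body RNA in this difference was not tested.

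The make-up of the family's RNA is given as a description, with no test. Cpr49Ac made up between 38.0% and 45.0% of the summed RPKM of the family in wild type and between 17.6% and 32.3% in the transgenic libraries. Cpr64Aa made up between 1.49% and 5.02% in wild type and between 11.6% and 20.1% in the transgenic libraries. For both genes the ranges of wild type and the transgenic libraries did not overlap. A share depends on the levels of all members, and in CPM Cpr49Ac did overlap between these groups. Both genes were picked after the values were seen, and shares of other members were not compared in this way. The summed RPKM itself ranged from 400 to 598 in wild type and from 369 to 911 in the transgenic libraries, with wide overlap.

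**Figure D3:**
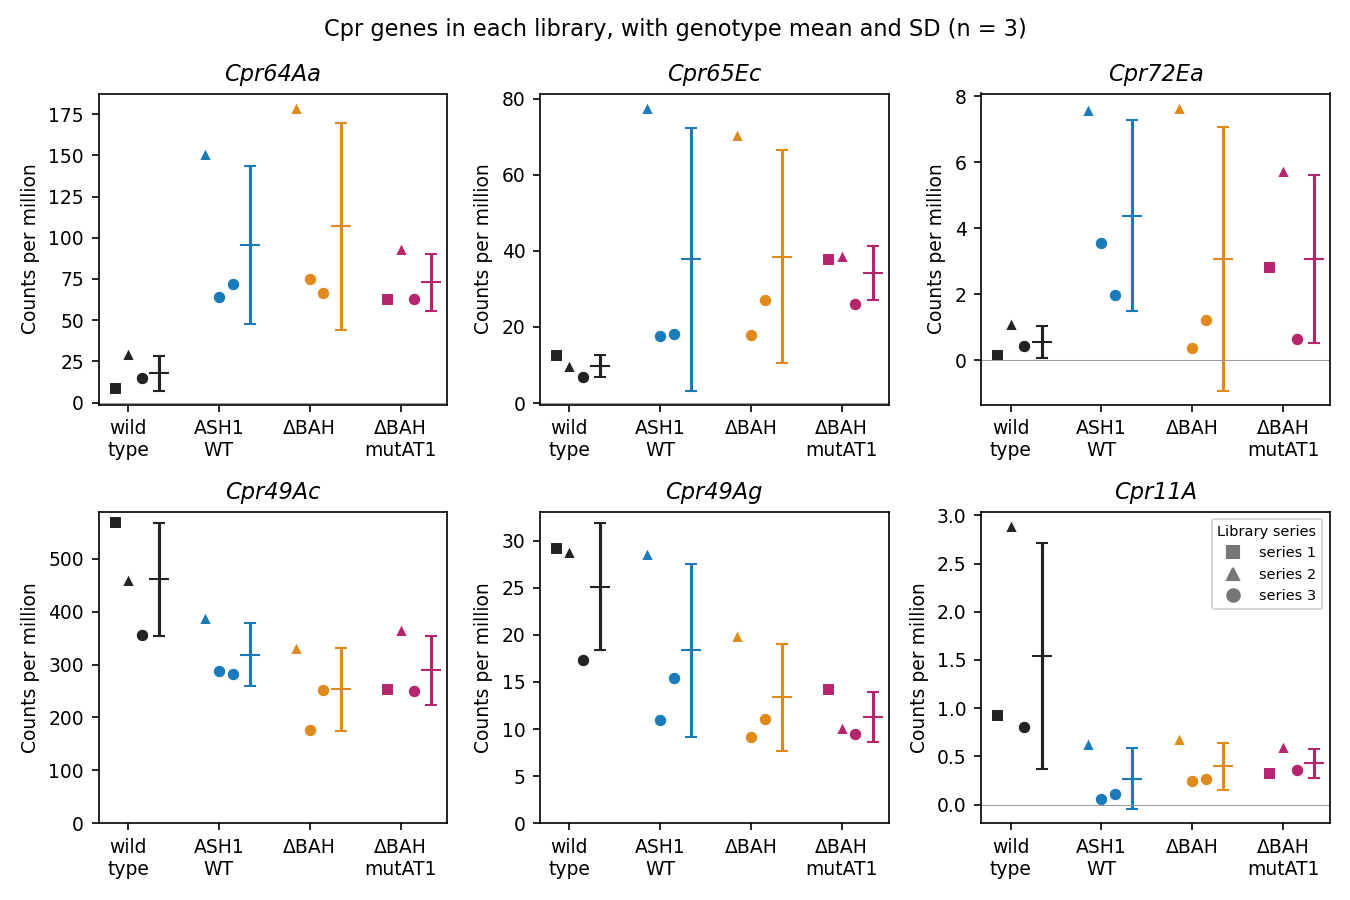
CPM of 6 Cpr genes in each library (vertical axes from or just below 0), by genotype, with squares, triangles and circles for library series 1, 2 and 3 and the genotype mean and SD (n = 3) as the bar beside the points. Cpr64Aa and Cpr65Ec are higher in all 9 transgenic libraries than in wild type, Cpr11A is lower in all 9, and in ASH1 WT and ΔBAH the series 2 library is the highest in all 6 panels.

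Of the members tested, 2 had all 9 transgenic libraries above the 3 wild-type libraries, Cpr64Aa and Cpr65Ec, as did 2.80% of all genes tested. A further member, Cpr11A, had all 9 below, as did 3.18% of all genes. Cpr11A was scarce, at 0.933, 2.89 and 0.800 CPM in wild type and between 0.0615 and 0.680 CPM in the transgenic libraries. Its difference for the mean of the lines was -2.04 ± 0.59 on the log2 scale and missed the threshold (adjusted p = 0.115 with edgeR), but it was called with DESeq2, with series as a covariate and without ASH1 WT replicate 1. Cpr49Ag was at 29.2, 28.8 and 17.3 CPM in wild type, at 28.6, 11.0 and 15.4 in ASH1 WT, at 19.9, 9.20 and 11.1 in ΔBAH and at 14.3, 10.1 and 9.43 in ΔBAH mutAT1. It overlapped only through the ASH1 WT and ΔBAH libraries of series 2.

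Of the 4 members at 64A, Cpr64Aa was the one called, and Cpr64Ab was too scarce to be tested. Cpr64Ad was at 1.21, 1.53 and 1.42 CPM in wild type, between 0.431 and 0.597 in ASH1 WT, between 0.572 and 0.670 in ΔBAH and between 0.602 and 1.39 in ΔBAH mutAT1. It had the second smallest p of the family for ASH1 WT against wild type (-1.41 ± 0.43, adjusted p = 0.197 with edgeR). Cpr64Ac overlapped between the groups, with 0.272 to 5.24 CPM in wild type and 0.239 to 4.67 in the transgenic libraries.

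The other 4 of the 8 members with the most reads overlapped between wild type and the transgenic lines. Cpr12A was at 79.7, 96.8 and 61.6 CPM in wild type, at 125, 75.6 and 70.3 in ASH1 WT, at 128, 66.5 and 88.0 in ΔBAH and at 69.7, 81.6 and 69.2 in ΔBAH mutAT1. Cpr66D was at 30.1, 41.5 and 28.1 CPM in wild type, at 37.0, 14.1 and 21.6 in ASH1 WT, at 40.0, 19.9 and 25.8 in ΔBAH and at 31.5, 35.96 and 15.9 in ΔBAH mutAT1. In both genes the highest ASH1 WT and ΔBAH library was the one of series 2.

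Cpr78E was at 36.8, 19.0 and 14.1 CPM in wild type, at 42.7, 8.98 and 13.5 in ASH1 WT, at 36.4, 12.9 and 21.5 in ΔBAH and at 32.3, 22.4 and 11.8 in ΔBAH mutAT1. Cpr51A was at 9.25, 19.4 and 9.79 CPM in wild type, at 31.1, 11.8 and 16.2 in ASH1 WT, at 35.0, 10.9 and 12.9 in ΔBAH and at 18.4, 19.8 and 10.7 in ΔBAH mutAT1. Spread within a genotype was here as wide as that between genotypes.

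For wild type and ΔBAH mutAT1 the replicate numbers pair the libraries, since equal numbers fall in the same series, and the pairs deviated from their group means together. With the replicate number as a block and only these 6 libraries in the fit, 7 members of 22 tested were called, beside 12.3% of all genes tested. Cpr64Aa (2.17 on the log2 scale, adjusted p = 0.000346 with edgeR), Cpr65Ec (1.81, adjusted p = 7.75e-05), Cpr72Ea (2.52, adjusted p = 0.0430), Cpr56F (1.36, adjusted p = 0.00769) and Cpr49Ah (0.87, adjusted p = 0.0245) were higher in ΔBAH mutAT1. Cpr49Ag (-1.15, adjusted p = 0.00196 with edgeR) and Cpr49Ac (-0.67, adjusted p = 0.0195 with edgeR) were lower. Without the block, Cpr65Ec was the member called in these 6 libraries, and edgeR called none in all 12. With all 12 libraries and series as a covariate, all of the 7 but Cpr49Ah were called. Over all 12 libraries, the common coefficient of variation between libraries of a genotype was 32% without and 14.4% with series as a covariate.

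Between the transgenic lines no member passed the test. For ΔBAH against ASH1 WT, 0 of 25 members were called, beside 0.0% of all genes, and 0 had an unadjusted p below 0.05, beside 1.23%. DESeq2 called 0 members there (0.0329% of all genes), as did limma-voom (0.0135%). For ΔBAH mutAT1 against ΔBAH, 0 of 25 were called, beside 0.0479% of all genes, and 0 had an unadjusted p below 0.05, beside 1.95%. DESeq2 again called 0 (0.192% of all genes), as did limma-voom (0.0269%). For ΔBAH mutAT1 against ASH1 WT, 0 of 25 were called, beside 0.0479% of all genes, and 0 had an unadjusted p below 0.05, beside 2.13%. DESeq2 called 0 (0.0821% of all genes) and limma-voom 0 (0.0269%). With the replicate block and only the 6 libraries of ASH1 WT and ΔBAH, 0 of 18 members were called and 5 had an unadjusted p below 0.05. Equal numbers share a series in these lines. Replicates 2 and 3 of both are all in series 3, so the series does not give which of them pair. Of all genes in that fit, 0.0636% were called and 10.5% had an unadjusted p below 0.05.

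Cpr100A had the smallest p in both stepwise comparisons. It was at 0.328, 0.272 and 0.123 CPM in wild type, between 0.284 and 0.316 in ASH1 WT, at 2.58, 0.180 and 0.939 in ΔBAH and at 0.684, 0.105 and 0.119 in ΔBAH mutAT1. Replicates 1 and 3 of ΔBAH lay above every library of the other genotypes, and replicate 2 did not. The difference was 2.03 ± 0.93 on the log2 scale for ΔBAH against ASH1 WT (adjusted p = 1.0 with edgeR) and -1.98 ± 0.90 for ΔBAH mutAT1 against ΔBAH (adjusted p = 1.0 with edgeR). Leaving out ΔBAH replicate 1 left 0.86 and -0.82. Next were Cpr47Eb for ΔBAH against ASH1 WT (1.53 ± 1.06) and Cpr56F for ΔBAH mutAT1 against ΔBAH (0.74 ± 0.55), both with an adjusted p of 1.0 with edgeR.

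Levels of the family differed between library series within a genotype. In ASH1 WT and in ΔBAH, the library of series 2 had the highest level for 23 of the 25 expressed members, beside 46.9% and 48.5% of all genes tested. In wild type it was the highest for 15 members, beside 41.8% of genes, and in ΔBAH mutAT1 for 16, beside 41.3%. It exceeded the mean of series 3 more than 2-fold for 14 members in ASH1 WT, where 15.3% of all genes did so, and for 16 in ΔBAH, where 15.4% did. In wild type and ΔBAH mutAT1 these counts were 7 and 10, beside 5.92% and 6.09% of genes. Cpr65Ec, at 77.6 against 17.7 and 18.1 CPM within ASH1 WT, and Cpr72Ea, at 7.66 against 0.361 and 1.21 within ΔBAH, are examples.

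Transcript length moved with this difference. Expressed Cpr genes are short, with a median exon length of 990 bp (463 to 2117 bp), against 2099 bp for all annotated genes that passed the filter. In ASH1 WT, genes under 1000 bp had a median log2 ratio of series 2 over series 3 of 1.17, genes from 1000 to under 2000 bp of 0.48, genes from 2000 to under 4000 bp of -0.17 and genes of 4000 bp and over of -0.82. In ΔBAH the same medians were 1.09, 0.48, -0.14 and -0.81. In wild type they were 0.50, 0.30, -0.01 and -0.50, and in ΔBAH mutAT1 they were 0.49, 0.32, -0.02 and -0.56. The 13 expressed members under 1000 bp had medians of 1.12 in ASH1 WT and 1.06 in ΔBAH, close to those of all genes of their length. The 11 members from 1000 to under 2000 bp had medians of 0.95 and 0.79 in these lines, above those of all genes of that length. The part of transcript length in the difference between series was not tested.

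**Figure D4:**
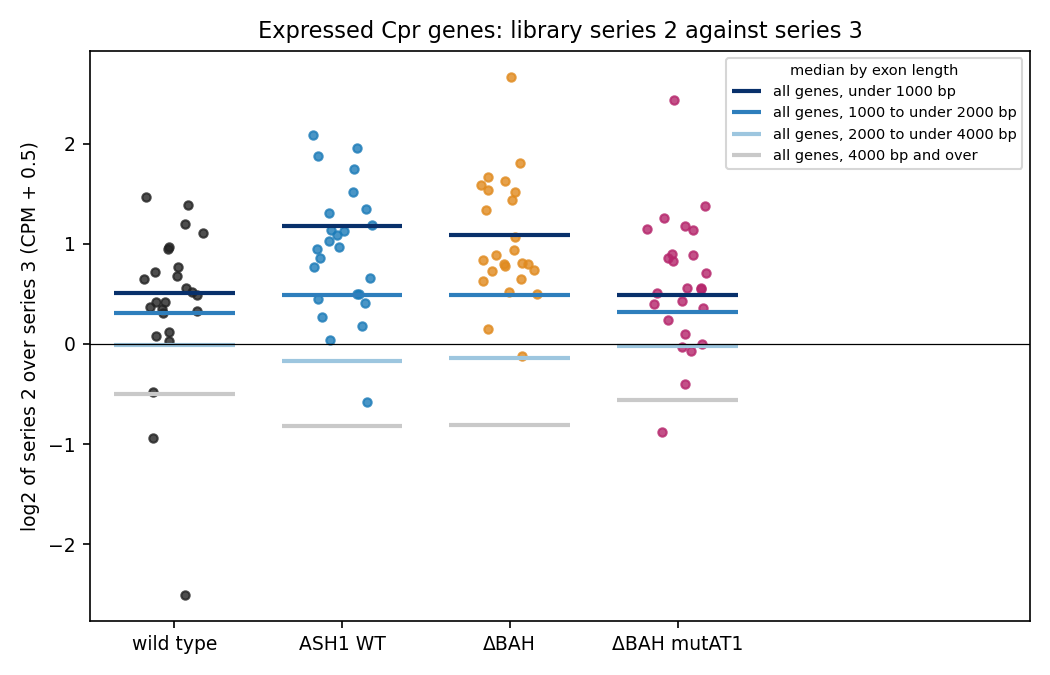
Log2 ratio of the series 2 library over the mean of the series 3 libraries (vertical axis, on CPM + 0.5) for the 25 expressed Cpr genes in each genotype (points), with the median of all genes tested in 4 classes of exon length as lines. In ASH1 WT and ΔBAH, 24 of the 25 Cpr points lie above 0, and the lines fall from 1.17 and 1.09 for the shortest genes to -0.82 and -0.81 for the longest.

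Other cuticle genes were read beside the family. The 29 further proteins with the same consensus, among them the larval cuticle proteins Lcp1 to Lcp4 and the pupal protein Edg78E, summed to between 1.54 and 9.66 CPM per library. Of these, 5 were silent and 5 were tested, and 0 were called in any comparison, beside at most 3.15% of all genes. The smallest p was that of Ccp84Aa, a gene of the cuticle cluster at 84A. It had no count in wild type and between 0.0597 and 0.759 CPM in every transgenic library (adjusted p = 0.0873 for the mean of the lines with edgeR), and Lcp1 followed (adjusted p = 0.394 with edgeR). The Tweedle proteins, another cuticle family, had 26 members, of which 7 were silent and 4 were tested. For the mean of the lines 1 was called, TwdlT, beside 3.15% of all genes. It fell by 1.58 on the log2 scale (adjusted p = 0.0117 with edgeR). Its highest transgenic library, at 7.62 CPM, lay below its lowest wild-type library, at 9.30, as was so for 3.18% of all genes.

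Genes that make, modify or break down chitin or assemble cuticle were abundant as a set, with 32 matched genes summing to between 5346 and 6966 CPM. The chitinase gene Cht10 alone lay between 540 and 2044 CPM, and the chitin synthase gene kkv between 269 and 543. Among the 29 tested, which include these and the deacetylase genes serp and verm, 0 were called in any comparison. The share of all genes called was at most 3.15%. For the mean of the lines the smallest p were those of exp, which is needed for chitin deposition (-0.45, adjusted p = 0.205 with edgeR), and pio, a zona pellucida protein gene (-0.42, adjusted p = 0.221 with edgeR).

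In the tanning and pigment list, 8 of 10 matched genes were tested and 1 was called for the mean of the lines, beside 3.15% of all genes. This gene, amd, encodes an enzyme of catechol metabolism that acts in cuticle formation. It was at 8.40, 14.5 and 8.68 CPM in wild type and between 20.4 and 31.3 CPM in the transgenic libraries, without overlap. Of all genes tested, 2.80% likewise had all 9 transgenic libraries above wild type. The gene amd rose for the mean of the lines (1.34 ± 0.21 on the log2 scale, adjusted p = 0.00408 with edgeR) and passed the test in each line.

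The ecdysone list of 18 tested genes had 2 calls for the mean of the lines, both lower, beside 3.15% of all genes called. Hr3, a nuclear receptor that ecdysone induces, fell by 0.98 on the log2 scale (adjusted p = 0.0145 with edgeR). Ldh, the lactate dehydrogenase gene first known as the ecdysone-inducible ImpL3, fell by 1.38 (adjusted p = 0.00150 with edgeR). The part of these genes in the Cpr differences was not tested.

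Among markers of other tissues, 3 of 8 fat body markers tested, Lsp1beta, Lsp1gamma and apolpp, fell for the mean of the lines, beside 3.15% of all genes called. In any single line against wild type 0 were called, beside 1.92% to 2.17% of all genes. The summed fat body level in wild type was 3029 CPM in replicate 1 and 102 and 440 in replicates 2 and 3. Wild-type replicate 2, whose summed fat body level (102 CPM) lay within the transgenic range, had 29.2 CPM of Cpr64Aa and 9.82 CPM of Cpr65Ec, below all 9 transgenic libraries. This is a single library, and the part of fat body RNA in the Cpr differences was not tested. Of 8 matched tracheal markers, which share Gasp, serp and verm with the chitin list and summed to between 1497 and 2269 CPM, 1 was called. This was stumps, lower in ΔBAH mutAT1 against wild type, where 2.17% of all genes were called. Salivary gland markers summed to at most 23.2 CPM. Hemocyte, adult muscle precursor, larval muscle and neuron markers had no call, beside at most 3.15% of all genes in any comparison. The RNA is from whole discs, so fewer cells of a type and less RNA per cell cannot be told apart.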

How the data were processed

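RNA-seq read counts of 12 wing-disc libraries were used, 3 for each of 4 genotypes. The authors aligned single-end reads to dm3 with TopHat2 2.0.9 and made the deposited counts per gene with HTSeq 0.5.4p3, without normalization, as the paper's methods and the submitters' processing notes state. Counting options are not given in the sources used here. Symbols, positions and exon lengths came from BDGP6, which covers 13524 of 14869 identifiers; the counts refer to the older build.

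Tests used edgeR 4.0.16 (R 4.3.3) with filterByExpr (minimum count 10), TMM factors, a quasi-likelihood fit with 1 coefficient per genotype on all 12 libraries, and Benjamini-Hochberg adjustment over 8346 genes (threshold 0.05). Log2 fold changes use a prior count of 0.125. CPM are scaled to TMM-adjusted totals and RPKM divide them by exon length. Depth was 15083960 to 39180697 counts. Alternatives were RLE factors, no filter, DESeq2 1.42.0, limma-voom (limma 3.58.1), series as a covariate, a replicate block, only the libraries compared, and leaving out each library. The fit with the block and only the libraries compared was added after seeing the data. Replicate numbers pair wild type with ΔBAH mutAT1, where they share a series (correlations of deviations from the genotype means 0.423, 0.439 and 0.486). Equal numbers of ASH1 WT and ΔBAH also share a series (0.813, 0.588 and 0.487). Replicates 2 and 3 of both lines are all in series 3, so these correlations do not show which of them pair. The main edgeR fit was tested on simulated data that held no differences between series, and the alternatives were not tested in this way. No 2 libraries were copies.

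All expressed members are named, with each library's value for the 8 with the most reads and for called members; values or folds of other members are given beyond this rule, chosen after they were seen. Folds rest on the labels' replicates, and the p-values measure the spread between these libraries. Members and gene lists were chosen with earlier results of these data known. Sequences were not used here.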

Additional observations from a re-analysis of the deposited data

How the results depend on the processing

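Directions were followed across the alternatives for a chosen set of Cpr differences against wild type and those with the smallest p between lines. In this set no direction changed in any alternative run. Fold changes of other lists, and of Cpr64Aa between the lines, were refitted but not followed in this way. Counts of called members against wild type did change between the alternatives, and the cause was not tested. For ASH1 WT the count of 1 became 2 with DESeq2, 4 when series entered as a covariate, 0 under the replicate block and 0 when other genotypes were left out. For ΔBAH the count of 1 became 2, 3, 0 and 0 under the same settings. For ΔBAH mutAT1 the count of 0 became 1 with DESeq2, 6 with series as a covariate, 1 without the other genotypes and 7 when the replicate block was added to that. For the mean of the lines the count of 1 became 5 with DESeq2, 7 with series as a covariate and 3 with the replicate block. Leaving out 1 library gave 0 to 1 calls for each line against wild type and 0 to 2 for their mean, where it was 0 without wild-type replicate 1 or 3 and 2 without ASH1 WT replicate 1 or ΔBAH mutAT1 replicate 2. The calls of Cpr64Aa were lost in 12 of 19 alternatives for ASH1 WT, with an adjusted p between 2.02e-05 and 0.196, in 8 of 19 for ΔBAH (7.53e-06 to 0.146), and in 2 of 18 for the mean of the lines (2.35e-07 to 0.120). The replicate block among these alternatives joins libraries of different series for ASH1 WT and ΔBAH against wild type.

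Silent members numbered 16 in the main analysis, 16 to 18 without 1 library and 30 with the limit of 3 counts per library. Trace members numbered 24 to 29 and expressed members 24 to 28 without 1 library. With a filter minimum of 20 counts, 19 members were expressed, and 18 reached 1 RPKM in some genotype. Members under about 1 RPKM rest on few counts, so differences there were hardly detectable.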
